A study of Mus musculus with 8 samples.

Results

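A set of 10 genes of the nuclear factor kappa B (NF-κB) system is described here by its H3K27ac peaks in Oli-neu cells: the factor genes Nfkb1, Nfkb2, Rela, Relb and Rel, the inhibitor genes Nfkbia, Nfkbib and Nfkbie, and the chemokine genes Cxcl1 and Cxcl2. The genes were chosen by name, 10 of the 21951 protein-coding genes of the GENCODE mouse annotation, and every peak over a gene body or within 20 kb of it was taken. This gave 14 of the 28924 peaks of proliferating cells and 14 of the 27965 peaks of differentiating cells. H3K27ac, the acetylated form of a lysine in histone H3 found at promoters and enhancers in use, was immunoprecipitated with a Millipore antibody and sequenced (ChIP-seq). Oli-neu is a mouse line of the oligodendrocyte lineage, labelled as C57BL/6 progenitors of embryonic origin. Proliferating cells were kept with the hormones T3 and L-thyroxine and the growth factors bFGF and Pdgf-BB. Differentiating cells were given medium lacking the growth factors, with 1 µM of the erb inhibitor PD174265, for 1 day by the labels, whereas the study's culture methods give a longer differentiation. Both states are of a single cell line and gave 1 library each, so no spread between replicates exists and no test between the states was run. The ATAC-seq samples of the study, 3 with siCtr and 3 with siPadi2, were not analysed here.

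NF-κB factors are dimers of the proteins encoded by the 5 factor genes. In resting cells inhibitor proteins of the IκB family hold these dimers in the cytoplasm, and receptors for cytokines and microbial products trigger kinases that lead to destruction of the inhibitors. The freed dimers enter the nucleus, bind short kappaB sites and switch on genes of inflammation and survival, including some of the genes for the inhibitors and for the factors themselves, so that the system limits and renews itself. In glia the pathway is known for chemokine output during injury and inflammation.

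Peaks of the 2 lists were called separately by the authors, so each value was ranked only within its own list, and a percentile below is the share of peaks of that list with a lower −log10 q, the significance given by the peak caller. Fold enrichment is the caller's ratio of signal over background. Read counts are not part of the lists, so the depth at each peak is unknown. Of 8 genes listed as oligodendrocyte lineage markers, Sox10, Olig1 and Olig2 had a promoter peak in both lists and the other 5 in neither. This share of 37.5% stands beside 33.8% of all protein-coding genes with one in either list and 17.6% with one in both. None of 8 microglia and macrophage markers and none of 5 endothelial markers had a promoter peak, and of 5 astrocyte and 5 neuron markers 1 each did, Gja1 in the proliferating and Syt1 in the differentiating list. A peak within 20 kb in either list was found for 8 of the 8 oligodendrocyte, 6 of the 8 microglia and macrophage, 2 of the 5 endothelial, 4 of the 5 astrocyte and 3 of the 5 neuron markers. Over all protein-coding genes this share was 72.4%.

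A peak lay over the gene body or within 20 kb for 6 of the 10 genes in proliferating cells and for 7 in differentiating cells, with 95% exact (Clopper-Pearson) intervals of 26.2% to 87.8% and of 34.8% to 93.3%. Over all protein-coding genes the share was 62.7% in proliferating and 62.7% in differentiating cells. In either list 7 members had such a peak (72.4% of all protein-coding genes) and in both lists 6 did (53.1%). The members' counts were thus near the background. Nfkb1, Nfkb2, Rela, Rel, Nfkbia and Nfkbie had peaks in both lists, Nfkbib had one in the differentiating list, and Relb, Cxcl1 and Cxcl2 had none. A promoter peak, one that touches the 3000 bp before or the 100 bp after the gene's 5′ end, was found for 4 members in proliferating cells, Nfkb1, Rela, Rel and Nfkbia, and for these and Nfkb2 in differentiating cells. The intervals of these shares, 12.2% to 73.8% and 18.7% to 81.3%, include the 23.7% and 27.7% of all protein-coding genes. In either list 5 members had a promoter peak, against 33.8% of all genes, and in both lists 4 had one, against 17.6%. These intervals cover counting error only.

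**Figure D1:**
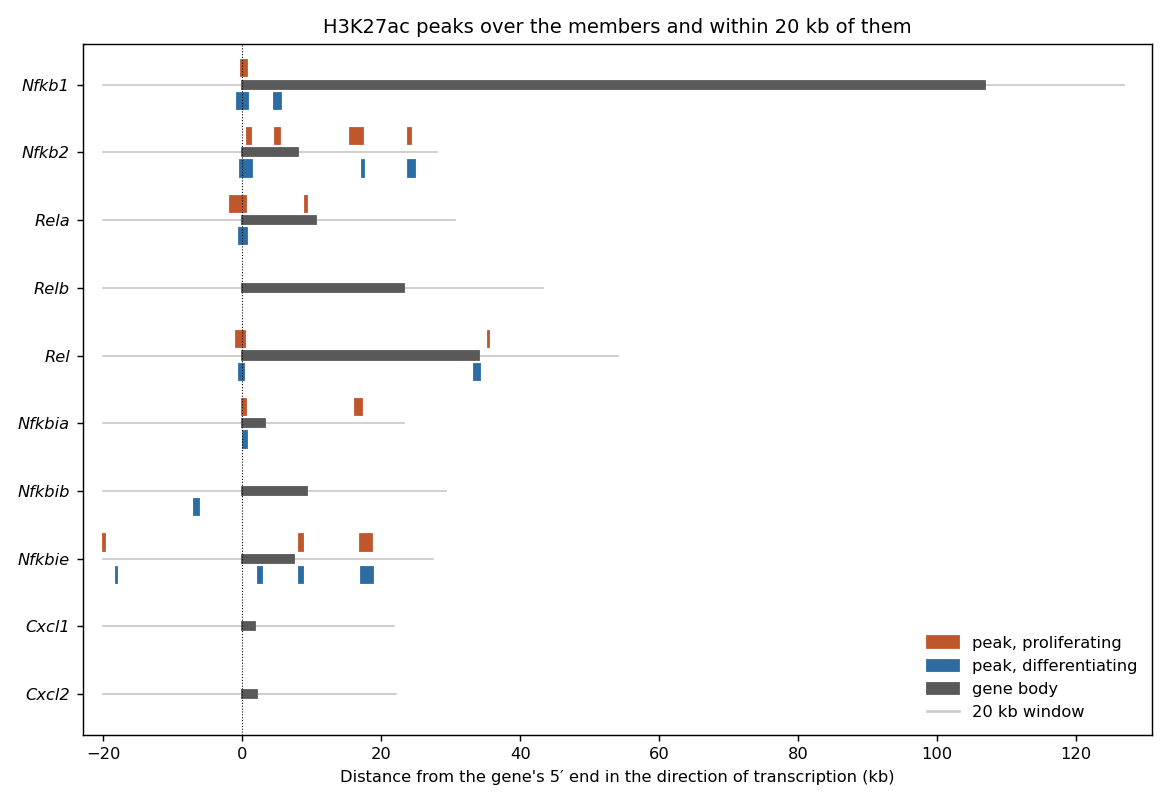
Position of every H3K27ac peak over the 10 genes and within 20 kb of them, in kb from the gene's 5′ end in the direction of transcription, with proliferating cells above and differentiating cells below each gene (grey bar, gene body; thin line, window). Peaks sit at or just inside the 5′ end of 5 genes in both states, and the lines of Relb, Cxcl1 and Cxcl2 carry none.

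The kappaB site itself was looked for in promoters, since several members are known to be targets of the factors they encode or restrain. The RefSeq promoter table (GRCm38.p6, 250 bases before to 50 after each start) has 10 entries for 8 of the 10 genes, and Nfkb1 and Relb have no entry. A match to the 10-base kappaB consensus on either strand was found in 8 of these 10 promoters, belonging to 6 of 8 genes, whereas 2779 of all 32851 promoters in the table held a match (8.46%). Promoters of the members were also rich in G and C, with a median of 62.8% against 52.7% over the table. Matches that overlap on both strands, as in Nfkb2, Rel, Cxcl1 and Cxcl2, are read from the same bases and are not separate sites. The Nfkb2 promoters chr19:46305445-46305744 and chr19:46305680-46305979 overlap and share the match at chr19:46305705-46305714. The 8 promoters with a match are therefore not all separate. The genes were chosen by name and several are known targets, so the contrast with 8.46% is no test of enrichment. The sequences below end at the start given by RefSeq or just before the first base that GENCODE marks as exon of the gene, are written 5′ to 3′ on the gene's strand, and have the kappaB matches in capitals. They are shown so that the sites can be compared by gene. Nfkb2, Rel and Nfkbia had a promoter peak in at least 1 list, and Nfkbie, Cxcl1 and Cxcl2 had none.
Nfkb2 (chr19:46305445-46305694, plus strand): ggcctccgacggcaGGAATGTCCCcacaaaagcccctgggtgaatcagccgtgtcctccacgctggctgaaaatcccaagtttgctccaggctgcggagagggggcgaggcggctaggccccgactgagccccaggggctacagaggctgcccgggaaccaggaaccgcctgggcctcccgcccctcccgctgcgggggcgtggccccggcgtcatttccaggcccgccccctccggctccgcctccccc
Rel (chr11:23770971-23771219, minus strand): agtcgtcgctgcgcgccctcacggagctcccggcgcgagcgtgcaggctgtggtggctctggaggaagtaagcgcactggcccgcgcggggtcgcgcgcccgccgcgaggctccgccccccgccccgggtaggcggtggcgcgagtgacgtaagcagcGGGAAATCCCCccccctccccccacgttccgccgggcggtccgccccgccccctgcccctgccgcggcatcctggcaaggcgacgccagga
Nfkbia (chr12:55492648-55492897, minus strand): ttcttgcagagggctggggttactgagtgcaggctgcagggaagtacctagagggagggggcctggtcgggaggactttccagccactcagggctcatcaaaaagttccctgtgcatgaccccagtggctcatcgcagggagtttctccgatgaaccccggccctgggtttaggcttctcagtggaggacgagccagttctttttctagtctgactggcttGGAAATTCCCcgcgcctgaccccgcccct
Nfkbie (chr17:45555450-45555699, plus strand): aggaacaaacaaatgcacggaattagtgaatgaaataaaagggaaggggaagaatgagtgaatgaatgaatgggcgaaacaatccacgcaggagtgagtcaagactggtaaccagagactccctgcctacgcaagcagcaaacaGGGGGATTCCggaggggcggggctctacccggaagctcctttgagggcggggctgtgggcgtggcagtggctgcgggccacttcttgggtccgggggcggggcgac
Cxcl1 (chr5:90890995-90891240, plus strand): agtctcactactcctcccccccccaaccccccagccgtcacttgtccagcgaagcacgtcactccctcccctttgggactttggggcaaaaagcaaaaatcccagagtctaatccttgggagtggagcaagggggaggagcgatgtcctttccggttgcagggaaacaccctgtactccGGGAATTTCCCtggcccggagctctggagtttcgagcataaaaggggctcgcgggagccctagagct
Cxcl2 (chr5:90903649-90903870, plus strand): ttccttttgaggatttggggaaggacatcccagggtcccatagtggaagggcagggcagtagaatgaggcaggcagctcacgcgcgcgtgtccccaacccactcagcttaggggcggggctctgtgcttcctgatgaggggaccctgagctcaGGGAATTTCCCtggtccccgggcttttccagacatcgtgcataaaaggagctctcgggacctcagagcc
The Nfkb2 sequence precedes the second of 3 RefSeq starts of this gene, and this start lay under no peak in either list. The first start has matches 39 to 30 bp upstream, GGGAATTCCC, and 11 to 2 bp upstream, GGGGCTTTCC. Cxcl1 and Cxcl2 carry the same 10 bases, GGGAATTTCC, from 71 to 62 bp and from 97 to 88 bp upstream of their RefSeq starts. No match was found in the windows of Rela and Nfkbib, which says only that the consensus is not in these 300 bases.

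Of the 6 genes with a kappaB match in the promoter, 3 had a match under an H3K27ac peak in at least 1 list. The same share over all promoters with a match was not computed, so this count has no background to be read against. The Rel match, 92 to 83 bp upstream, lay under a peak in both states, as did the Nfkb2 match 236 to 227 bp before the second RefSeq start. The Nfkb2 matches at the first start lay under the differentiating peak alone. The Nfkbia match, 29 to 20 bp upstream, lay under the proliferating peak alone, since the differentiating peak began inside the gene. The matches of Nfkbie, Cxcl1 and Cxcl2, and an Nfkb2 match 225 to 216 bp before the third RefSeq start, lay under no peak. A kappaB match under a peak in at least 1 list was thus found in Rel, Nfkb2 and Nfkbia. Nfkbie, Cxcl1 and Cxcl2 had only matches under no peak, and Rela had a promoter peak without a match. A match is a description of the letters, and binding of the factors was not measured.

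Nfkb1, which encodes p105, the precursor of the p50 subunit, spans chr3:135584655-135691547 on the minus strand. In proliferating cells a 746 bp peak began 121 bp upstream of its 5′ end and ended 624 bp downstream, with a fold enrichment of 3.17 and a −log10 q of 1.52. In differentiating cells a 1565 bp peak reached from 714 bp upstream to 850 bp downstream, with a fold enrichment of 3.24 and a −log10 q of 1.88. The proliferating peak lay wholly inside the differentiating one. By rank these peaks were at percentiles 20.2 and 49.5, so the peak at Nfkb1 was among the weaker ones of the proliferating list and near the middle of the differentiating list. Of its 10 annotated transcript starts the peaks covered 2 in each state, and the other 8, all farther into the gene, lay under no peak. A second peak of differentiating cells, in an intron 4492 to 5555 bp downstream of the 5′ end, was at percentile 30.2 and had no overlapping peak in the other list. The rest of this gene, the longest of the 10 at 106893 bp, held no peak.

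Nfkb2, which encodes p100, the precursor of p52 in the non-canonical branch, lies at chr19:46304320-46312385 on the plus strand. Its peak of proliferating cells, 603 bp wide, lay from 640 to 1242 bp downstream of the 5′ end and covered none of the gene's 6 distinct transcript starts. It began 160 bp past the nearest of the starts before it. The peak of differentiating cells was 1627 bp wide, reached from 271 bp upstream to 1355 bp downstream, covered 3 starts and contained the whole proliferating peak. Fold enrichment was 3.44 at percentile 73.2 and 3.09 at percentile 53.0, so the wider peak had the lower rank. The absence of Nfkb2 from the proliferating promoter count therefore rests on where the peak began, and with the region set to 1000 bp on both sides of the 5′ end Nfkb2 was counted in both lists. Both peaks also lay on AC114539.1, an annotated gene on the other strand, and H3K27ac carries no strand, so a peak cannot be assigned to either. Inside Nfkb2 the proliferating list held a further peak at chr19:46308955-46309731, at percentile 18.6 and without a counterpart.

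Rela encodes p65, the subunit with the strong activation domain, and lies at chr19:5637483-5648130 on the plus strand. A 2381 bp peak began 1787 bp upstream of its 5′ end and ended 593 bp downstream in proliferating cells, with a fold enrichment of 3.66, a −log10 q of 3.15 and percentile 84.7. In differentiating cells the peak was 1231 bp wide, from 522 bp upstream to 708 bp downstream, with a fold enrichment of 3.91, a −log10 q of 4.64 and percentile 93.1. The peaks shared 1116 bp, and each covered 6 of 7 distinct transcript starts, more than for any other of the 10 genes. By width the proliferating peak stood above 98.9% of its list and the differentiating peak above 80.1%. Near the 3′ end of the gene, at chr19:5646513-5646775, a peak of the proliferating list at percentile 60.7 had no counterpart. Its 263 bp were the least width in that list.

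Rel encodes c-Rel, a subunit best known from lymphocytes, at chr11:23736847-23770970 on the minus strand, with a single annotated start. This start lay under a peak in both states. The proliferating peak was 1376 bp wide, from 956 bp upstream to 419 bp downstream, with a fold enrichment of 3.34 at percentile 52.7. The differentiating peak, 730 bp wide and wholly inside it, reached from 416 bp upstream to 313 bp downstream, with a fold enrichment of 2.95 at percentile 36.0. At Rel and Rela the proliferating peak was thus the wider one, and at Nfkb1 and Nfkb2 the differentiating peak was. Near the 3′ end of Rel each list had 1 more peak without a counterpart. The proliferating peak, chr11:23735400-23735662 with a −log10 q of 1.62, lay past the end of the gene and over no annotated gene. Its 263 bp were the least width in that list. The differentiating peak, chr11:23736810-23737622 with a −log10 q of 1.86, lay over the end of Rel. The start nearest to these peaks was one of Pus10, 16844 bp and 18254 bp away.

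Relb, whose product pairs with p52 in the non-canonical branch, lies at chr7:19606217-19629438 on the minus strand and had no peak within 20 kb in either list, so none of its 5 starts was covered. The nearest peak lay 32401 bp from the gene in proliferating cells and 35803 bp away in differentiating cells. The stretch without a peak around Relb was 89.9 kb and 102 kb long, longer than 60.5% and 68.0% of the stretches between neighbouring peaks of chromosome 7. Here and below, such stretches were measured only around members without a peak within 20 kb. By construction they span the gene and at least 20 kb on each side, so their ranks only describe them. Chromosome 7, which carries Relb and Nfkbib, had a peak within 20 kb for 52.5% of its protein-coding genes in either list, against 75.2% to 86.6% on the 6 other chromosomes that carry members.

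**Figure D2:**
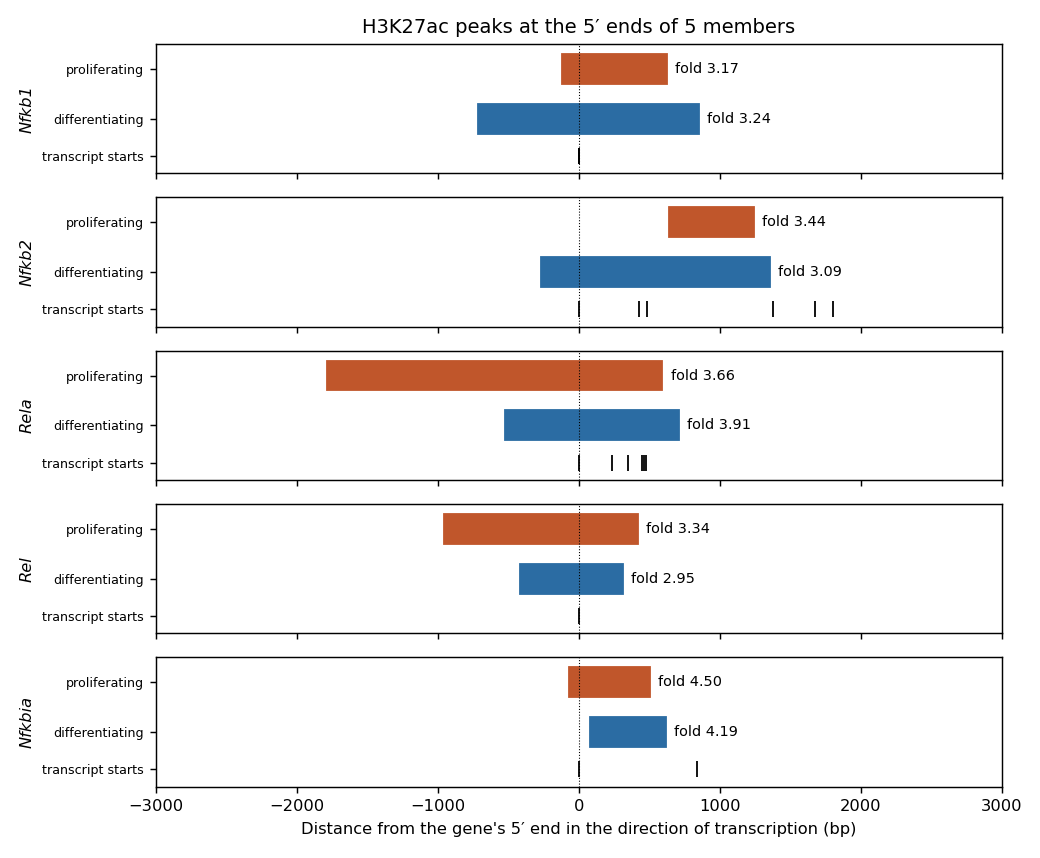
H3K27ac peaks (bars) within 3000 bp of the 5′ end of the 5 genes that had one in both states, in bp in the direction of transcription, with the caller's fold enrichment beside each bar and annotated transcript starts as ticks. The bars overlap in all 5 genes, the proliferating bar of Nfkb2 begins after the gene's first 3 starts, and the differentiating bar of Nfkbia begins 78 bp after its 5′ end.

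Among the inhibitors, Nfkbia encodes IκBα, the inhibitor that NF-κB itself induces rapidly, at chr12:55489410-55492647 on the minus strand. Its peaks had the highest fold enrichment of the peaks at the members' own starts. In proliferating cells a 576 bp peak began 71 bp upstream of the 5′ end and ended 504 bp downstream, with a fold enrichment of 4.50 and a −log10 q of 3.92. In differentiating cells a 538 bp peak lay from 78 to 615 bp downstream, with a fold enrichment of 4.19 and a −log10 q of 4.07. These values put the peaks at percentiles 91.4 and 90.4 by −log10 q, and at 95.4 and 94.6 by fold enrichment. Nfkbia was therefore high in both lists, although the differentiating peak covered no annotated start and counted as a promoter peak only through the bases within 100 bp downstream. The peaks shared 427 bp. A peak downstream of the gene in proliferating cells, at chr12:55475432-55476358, was at percentile 8.49 and had no counterpart.

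Nfkbib encodes IκBβ and lies at chr7:28758251-28767512 on the minus strand, and its 5′ end overlaps the start of Sirt2, a deacetylase gene on the other strand. None of its 3 starts lay under a peak. In proliferating cells the nearest peak was 41756 bp away, and the stretch without a peak around the gene was 391 kb long, longer than 90.3% of the stretches between peaks of chromosome 7, with 16 protein-coding genes wholly inside. In differentiating cells an 801 bp peak lay from 6217 to 7017 bp upstream of the 5′ end, within an intron of Sirt2, with a fold enrichment of 3.30 at percentile 53.7. From the 2 other starts of Nfkbib this peak lay at least 7089 bp upstream, and the start nearest to it was one of Sirt2, 1175 bp away.

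Nfkbie encodes IκBε, at chr17:45555703-45563169 on the plus strand. No peak lay over its 3 starts in either state. The only peak over the gene, 534 bp of intron from 2230 to 2763 bp downstream of the 5′ end, belonged to the differentiating list, had a fold enrichment of 3.20 at percentile 56.1 and had no counterpart. The other peaks in the window of Nfkbie lay over neighbouring genes, and which gene a peak acts on was not measured. The peak at the promoter of Slc35b2, a transporter gene whose start lies just past the end of Nfkbie, had a fold enrichment of 5.05 in proliferating and 5.27 in differentiating cells. With a −log10 q of 8.08 and 12.7, at percentiles 98.8 and 99.4, it was the strongest of the 14 peaks in each list and the only one with a −log10 q of at least 5, which 4.35% and 5.73% of all peaks reached. The promoter of Hsp90ab1, which encodes a chaperone, held a peak at percentiles 81.1 and 83.7. Peaks in an intron of Tcte1, at percentiles 72.7 and 56.9, did not overlap between the lists. They were 263 bp and 279 bp wide, the least width in each list.

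Cxcl1 (chr5:90891241-90893115) and Cxcl2 (chr5:90903871-90905938), both on the plus strand, encode chemokines that attract neutrophils and are classic NF-κB targets. Their 20 kb windows overlap, and no peak of either list lay in them. In proliferating cells the nearest peaks were 160741 bp from Cxcl1 and 169677 bp from Cxcl2. In differentiating cells both had the same nearest peak, chr5:90930831-90931965 at percentile 70.4, which lay 37716 bp from Cxcl1 and 24893 bp from Cxcl2. The stretch without a peak around them was 345 kb long in proliferating cells and 335 kb in differentiating cells. It was longer than 96.4% and 95.9% of the stretches between peaks of chromosome 5. The median there was 17.2 kb and 19.6 kb, which any stretch around a gene without a peak within 20 kb must exceed. The related genes Cxcl3, Cxcl5, Cxcl15, Pf4 and Ppbp lay wholly inside the stretch around Cxcl1 and Cxcl2 in both lists. The lack of peaks covered a cluster of neighbouring chemokine genes and was not limited to the pair, and chromosome 5 as a whole had a peak within 20 kb for 75.4% of its protein-coding genes. A region without a called peak can still hold H3K27ac below the caller's threshold, which the lists do not show.

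As a group, the 14 peaks near the members had ordinary strength. Their median percentile by −log10 q was 56.7 in proliferating cells, with a range from 8.49 to 98.8, and 55.9 in differentiating cells, with a range from 30.2 to 99.4. Median fold enrichment was 3.33 and 3.24, against 3.33 and 3.13 over all peaks, and median width was 674.5 bp and 807 bp, against 652 bp and 755 bp. The windows of the members, 9 after joining those that overlap and 0.578 Mb in all, held 24.2 peaks per Mb in each list, whereas the chromosomes held 10.6 and 10.3. These windows are centred on genes, which the chromosomes as a whole are not. The median GC content of the peaks was 59.8% and 62.0%, against 47.1% and 47.5% over all peaks. In the 300 bp at the centre of each peak, the kappaB consensus was matched in 2 of 14 peaks in proliferating cells and 6 of 14 in differentiating cells, against 6.53% and 6.43% of all peaks. The matches in proliferating cells were 1 at Nfkb2 and 1 at the neighbour Slc35b2. Those in differentiating cells were 4 at Nfkb1, Nfkb2, Rel and Nfkbie, and 2 at the neighbours Slc35b2 and Hsp90ab1. Only the centre was read, so these counts depend on where each called peak is centred. The Rel match lay under a peak in both states but near the centre of the differentiating peak alone. The peaks at Nfkb1 and Hsp90ab1 were likewise shared and matched only in the differentiating list. The counts therefore do not compare the sites of the 2 states. GC content was higher near the members as well, and its part in these matches was not tested.

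**Figure D3:**
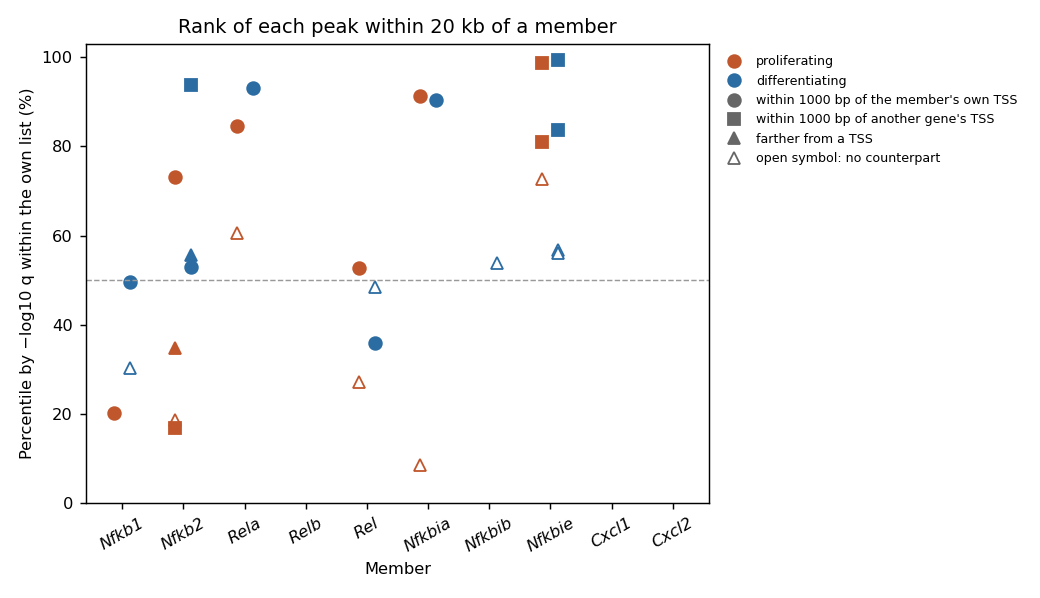
Percentile by −log10 q within its own list (y axis, %) of every peak within 20 kb of each member (x axis), with circles for peaks within 1000 bp of the member's own start, squares for another gene's start, triangles for peaks farther away, and open symbols for peaks without a counterpart. Nfkbia and Rela had circles above 84 in both states, the squares of Nfkbie are the Slc35b2 and Hsp90ab1 promoters, and all open symbols are triangles.

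The peaks of the 2 states were compared by overlap. Of the 14 peaks in each list 9 overlapped a peak of the other list (64.3%, 95% exact interval 35.1% to 87.2%), against 29.2% of all proliferating and 30.1% of all differentiating peaks. When the overlap had to cover at least 0.5 of both peaks, 28.6% of the members' peaks in each list had a counterpart, against 16.7% and 17.3% over all peaks. Within 1000 bp of a start of a protein-coding transcript lay 8 of the 14 peaks in each list (57.1%). Over all peaks this share was 23.1% in the proliferating and 26.9% in the differentiating list. All 8 of the members' peaks near a start had a counterpart. They were the peaks at Nfkb1, Nfkb2, Rela, Rel and Nfkbia and at the neighbouring promoters of Fbxl15, Slc35b2 and Hsp90ab1. Over all peaks near a start, 69.7% and 61.9% had a counterpart. Of the other 6 peaks 1 had one in each list, a peak in the neighbouring gene Psd, and over all peaks farther from a start the share was 17.0% and 18.5%. The limit of 1000 bp was chosen after the values were seen, and the difference between the members' peaks and all peaks was not tested. The overlap at Psd was 274 bp, between a wide proliferating peak at percentile 34.7 and a narrow differentiating peak at percentile 55.6. The largest shift in rank among shared peaks was at the promoter of Fbxl15, which also overlaps the promoter region of Psd, from percentile 16.7 with a fold enrichment of 2.69 to percentile 93.9 with a fold enrichment of 3.85. With 1 library per state, such a shift between states and a shift between libraries cannot be told apart.

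Other genes of the pathway were set beside the members in 3 lists. Of 22 receptors, adaptors and kinases that act upstream of the factors, 13 had a promoter peak in either list (59.1%, exact interval 36.4% to 79.3%), 9 in the proliferating list and all 13 in the differentiating list. Of 8 further regulators 3 had one (37.5%, 8.52% to 75.5%): Otulin in the differentiating list, Nfkbiz in the proliferating list and Commd1 in both. This list was drawn up as negative regulators, but not every gene in it, Nfkbiz among them, acts only as one. Of 18 further target genes 3 had one (16.7%, 3.58% to 41.4%), Lif in the proliferating list and Bcl2l1 and Mmp9 in the differentiating list, and none had one in both. The peaks of Lif, at percentile 8.49, and Mmp9, at 38.8 and 279 bp wide, lay wholly upstream of the 5′ end. The Bcl2l1 peak, at percentile 83.4, covered the 5′ end. The other 15, among them the cytokine genes Tnf, Il6 and Il1b, named after the values were seen, had none. Only the interval of the upstream genes left out the 33.8% of all protein-coding genes. The intervals cover counting error only and were read over several lists, which were chosen with earlier results of these data known. They are therefore no test of enrichment, and the differences between the lists were not tested.

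**Figure D4:**
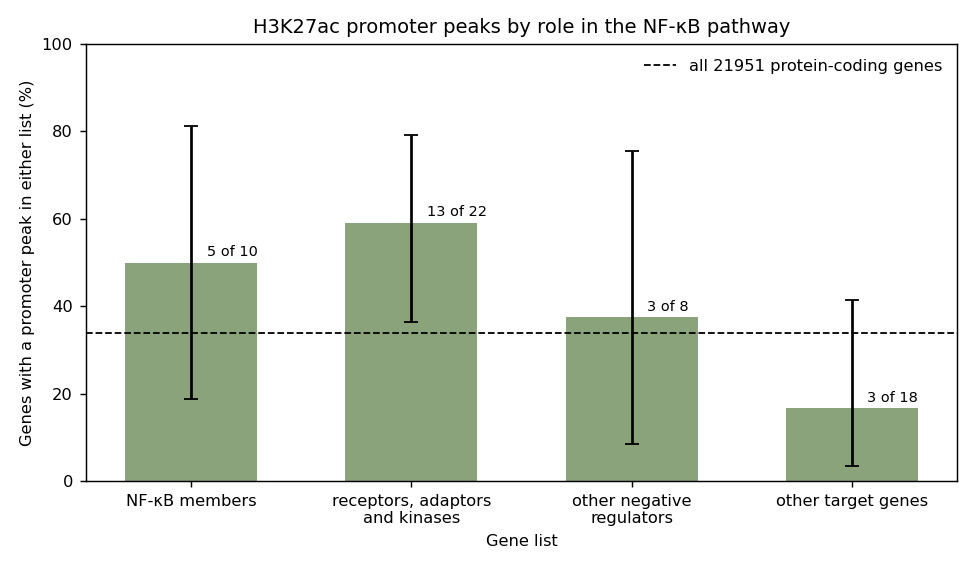
Share of genes with a promoter peak in either list (y axis, %) for the members and 3 lists of other pathway genes (x axis), with exact 95% intervals for counting error and the number of genes over each bar. The bars stand at 5 of 10, 13 of 22, 3 of 8 and 3 of 18 genes, and the dashed line is the 33.8% of all protein-coding genes. The bar labelled other negative regulators is the list of further regulators, not all of which act only as brakes.

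Of these 48 genes 10 had a promoter peak in both lists (20.8%, exact interval 10.5% to 35.0%), beside 17.6% of all protein-coding genes. The pooled share joins unlike lists: 9 of the 22 upstream genes, 1 of the 8 further regulators and none of the 18 further targets. These differences were not tested. Chuk encodes the kinase IKKα, which phosphorylates inhibitors and p100, and its peak was at percentile 4.23 in proliferating and 89.2 in differentiating cells. Map3k7, the gene of the kinase TAK1, was at percentiles 90.2 and 75.9. Its partners Tab1 and Tab2 were at 98.5 and 89.6 and at 95.2 and 97.6. Birc2, which encodes a ubiquitin ligase of the TNF receptor complex, was at 94.3 and 92.7. These 3 genes, Tab1, Tab2 and Birc2, had the highest ranks among the 48 genes in proliferating cells. Among the same 48 genes the highest in differentiating cells were Tab2, Map3k14 at 97.1 and Birc2. Map3k14 encodes NIK, the kinase of the non-canonical branch, and had no peak within 20 kb in the proliferating list. Irak1 and Irak4, kinases of Toll-like and interleukin-1 receptor signalling, were at 68.8 and 64.7 and at 81.1 and 48.1. The receptor gene Tlr4 was at 39.6 and 74.4. Traf3, which encodes a restraint on NIK, was at 74.8 and 21.7, with its 2 peaks apart from each other, and Commd1, a negative regulator, was at 28.7 and 74.6. The ranks of Tab1, Tab2 and Birc2 were above 89 in both lists, whereas those of Chuk, Traf3, Commd1, Tlr4 and Irak4 lay more than 30 percentile points apart.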

How the data were processed

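H3K27ac ChIP-seq of Oli-neu cells gave 1 library per state. The authors aligned reads to GRCm38/mm10 with Bowtie2 2.1.0, called broad peaks per library with MACS2 2.0.10, used SAMtools and bedtools, and removed blacklisted regions. The deposited lists have no header, and each peak's 3 values were read by their order and size as fold enrichment, a ratio made by the authors, −log10 p and −log10 q. The sources used here name no input library, and the lists give no counts, so depth per peak is unknown.

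Peaks were joined to GENCODE M21 genes by any shared base, with positions counted from 1 (Python 3.11.15, numpy 2.4.6, scipy 1.17.1; plots with matplotlib 3.10.9). Intervals are exact binomial ones for counting error. Overlaps and promoter calls were tested on simulated data, and ranks were not. Named were all members, pathway genes with promoter peaks in both lists or among the 3 highest per list, and genes nearest to a member's peak; other names, and the 1000 bp limit for peaks near a start, were chosen after the values were seen. The members, lists and regions were chosen with earlier results of these data known. Alternatives varied the window, the promoter, the threshold on q, the overlap, the ranking measure and the use of peak midpoints.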

Additional observations from a re-analysis of the deposited data

How the results depend on the processing

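Of 78 alternative values, 58 stayed within 1.5 times a count or within the 95% interval of a share or median, and 20 did not. When both lists were limited to a −log10 q of 5 or more, fewer peaks were left, and the members with a peak within 20 kb numbered 1 in the proliferating list, the differentiating list, either and both, the peaks near members 1 in each list, the members with a promoter peak 0 in either list and in each, and the pathway genes with a promoter peak 3 instead of 19. The single peak left per list was that of Slc35b2, and 100% of such peaks had a counterpart. The number of peaks followed the window, as its construction requires: 7 and 8 over gene bodies, 9 and 9 within 5 kb, and 30 and 31 within 50 kb, in the proliferating and differentiating list. With a reciprocal overlap of at least 0.5, 28.6% of the peaks in each list had a counterpart instead of 64.3%, so most shared peaks differed in extent. With a q of at most 0.05 and with peak midpoints no count left these limits. No paired analysis was possible because no label pairs the libraries of the 2 states, and the ATAC-seq samples with shared replicate numbers were not used here. Each state has 1 library, so no value can be set against replicates.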
